A study of Mus musculus with 14 samples.

Results

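Absorptive colonocytes are the surface cells of the colon that take up salt, water and bacterial metabolites. A small number of their nuclei were present in a preparation of colon muscle. Muscularis was separated by hand from the colon of C57BL/6 mice, flash frozen, and nuclei were isolated for a 10x Genomics assay that reads RNA and open chromatin from the same nucleus. There was 1 nuclei library labelled WT mTmG (mTmG is a fluorescent reporter allele; called WT) and 1 labelled Carmn iKO (called KO). Carmn makes a non-coding RNA in smooth muscle cells. The sources used here do not give the driver or timing of its deletion, any treatment, the ages, or how many mice a nuclei library holds. A nucleus was kept with at least 300 genes and at most 5% mitochondrial UMIs (unique molecular identifiers, 1 per captured RNA molecule), and colonocyte nuclei were chosen by their own UMI counts, when Slc26a3, Ceacam20, Nlrp9b and Paqr5 together had at least 2 UMIs and more than 5 secretory genes (Muc2, Capn9, Fer1l6, Tpsg1 and Anxa13). This gave 51 of 2837 WT nuclei (1.80%, exact binomial 95% interval 1.34 to 2.36%) and 14 of 1696 KO nuclei (0.825%, interval 0.452 to 1.38%), 65 of 4533 in all. With 1 library per genotype the difference in share has no replicate check, and genotype cannot be told apart from how much mucosa came along with the muscle. All intervals here cover counting error only.

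Colonocytes arise from crypt stem cells, stop dividing as they move up, and mature at the surface, where a brush border of microvilli carries exchangers, channels and enzymes. Slc26a3 exchanges luminal chloride for bicarbonate and works next to the sodium-proton exchanger Slc9a3, so that the pair takes up sodium chloride. Ceacam20 is a membrane protein of the intestinal brush border, Nlrp9b is an epithelial sensor of viral RNA, and Paqr5 is a membrane progestin receptor. Goblet cells, the mucus-making neighbours, are held out by the secretory genes of the rule.

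The start-site windows of the 4 marker genes are shown because these genes define the nuclei, and that of Epcam, an adhesion molecule of all epithelia, because open-chromatin counts at its start are given further on. They are RefSeq windows on GRCm38.p6, 250 bases before to 50 bases after the start. Capitals mark the only matches to the motifs searched on both strands, TTTATNG (the CDX type) and CAAAGTCCA (the HNF4 type), letters that resemble those known for the intestinal factors CDX2 and HNF4A. A match is a description of the letters only.
Slc26a3, chr12:31437969-31438268, plus strand: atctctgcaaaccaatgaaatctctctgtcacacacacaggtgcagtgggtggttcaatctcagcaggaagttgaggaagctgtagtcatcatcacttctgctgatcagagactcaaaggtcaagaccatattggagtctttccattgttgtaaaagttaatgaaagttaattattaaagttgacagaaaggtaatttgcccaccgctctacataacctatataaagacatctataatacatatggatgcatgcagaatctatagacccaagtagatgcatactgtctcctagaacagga
Ceacam20, chr7:19965162-19965461, plus strand: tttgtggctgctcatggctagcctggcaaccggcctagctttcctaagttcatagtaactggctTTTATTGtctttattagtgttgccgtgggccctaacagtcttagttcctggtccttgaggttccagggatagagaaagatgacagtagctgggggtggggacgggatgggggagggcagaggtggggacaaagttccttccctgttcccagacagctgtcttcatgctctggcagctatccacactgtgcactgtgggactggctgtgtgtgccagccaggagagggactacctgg
Nlrp9b, chr7:20007773-20008072, plus strand: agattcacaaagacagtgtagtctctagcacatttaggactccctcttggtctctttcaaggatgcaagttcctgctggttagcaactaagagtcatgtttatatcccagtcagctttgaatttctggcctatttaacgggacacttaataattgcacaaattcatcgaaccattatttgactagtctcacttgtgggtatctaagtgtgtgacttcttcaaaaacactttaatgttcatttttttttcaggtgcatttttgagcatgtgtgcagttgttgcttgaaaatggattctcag
Paqr5, chr9:62026741-62027040, minus strand: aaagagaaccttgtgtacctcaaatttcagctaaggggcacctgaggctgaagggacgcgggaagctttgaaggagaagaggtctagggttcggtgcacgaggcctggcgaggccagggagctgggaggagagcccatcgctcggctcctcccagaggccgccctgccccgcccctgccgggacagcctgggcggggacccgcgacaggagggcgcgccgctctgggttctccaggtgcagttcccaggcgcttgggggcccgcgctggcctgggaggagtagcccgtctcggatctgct
Epcam, chr17:87635729-87636028, plus strand: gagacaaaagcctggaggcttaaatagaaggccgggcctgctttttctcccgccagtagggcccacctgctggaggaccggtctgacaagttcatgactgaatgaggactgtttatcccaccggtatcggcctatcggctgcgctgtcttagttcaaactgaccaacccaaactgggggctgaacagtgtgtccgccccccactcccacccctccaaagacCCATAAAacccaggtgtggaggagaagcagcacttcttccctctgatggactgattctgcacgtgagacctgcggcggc
The windows of Slc26a3, Nlrp9b and Paqr5 held neither motif, and those of Ceacam20 and Epcam each had 1 CDX-type match. Windows were found for 51 of 72 colonocyte genes (the markers and the lists for epithelial identity, brush border, ion transport and surface maturity). Of their 61 windows, 8 (13.1%) held the CDX-type letters against 10.9% of all 32851 windows, and 0 held the HNF4-type letters against 0.475% of all. Ceacam20 (chromosome 7, 19965412 to 19991104) ends 360 bases before Nlrp9b (19991465 to 20073306) begins on the same strand in GENCODE M21, so those 2 markers are neighbouring genes. The RefSeq window of Nlrp9b printed above (20007773 to 20008072) lies inside that GENCODE gene, so the 360 bases hold for the GENCODE start only. If reads or transcripts run from Ceacam20 into Nlrp9b, their UMIs are not independent, and this was not tested.

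The values that chose the nuclei are given as a description only. In WT the 4 markers had 277 UMIs over the 51 nuclei, with a lowest value of 2, a median of 3 and a highest of 48 in a nucleus. In KO they had 187 UMIs over 14 nuclei, with a lowest value of 2, a median of 3.5 and a highest of 43. Slc26a3 had a UMI in 32 of 51 WT nuclei and 13 of 14 KO nuclei, Ceacam20 in 31 and 6, Nlrp9b in 28 and 5, and Paqr5 in 13 and 3. A Slc26a3 UMI was present in 0.969% of the other 2786 WT nuclei and in 14 of 959 WT nuclei with a high smooth muscle signal (1.46%), at median depths of 1580.5 and 2360 UMIs against 1481 in the colonocyte nuclei. In KO these shares were 0.773% of 1682 and 3 of 477 (0.629%), at 1856 and 3299 UMIs. A high smooth muscle signal meant at least 20 UMIs of the smooth muscle list, and free RNA and mixed nuclei cannot be told apart in the low share there. Just outside the threshold were 45 WT and 17 KO nuclei with 1 marker UMI, and 10 WT and 1 KO barcodes with at least 2 marker UMIs but no more than the secretory genes, all of them above 20000 UMIs.

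The label was checked on genes the rule did not use. Epithelial identity genes (16 genes, such as keratins and Epcam) had at least 3 UMIs in 42 of 51 WT and 14 of 14 KO nuclei, against 12.4% of the other WT and 13.5% of the other KO nuclei. Brush border genes had at least 3 UMIs in 49 of 51 and 14 of 14, against 22.9% and 26.8%. Of the markers of other cells, goblet genes had 10 UMIs in all WT members and 3 in KO. The rule holds goblet cells out by its secretory genes, so these low goblet counts cannot check the label. Enteroendocrine genes had 0 UMIs in WT, where a count of 0 allows up to 3 UMIs. Genes of interstitial cells of Cajal had 119 UMIs in 34 of 51 WT nuclei, 1.002-fold the level of the other nuclei (0.829 to 1.20), and glia genes 118 UMIs in 25, 0.620-fold (0.513 to 0.744). Smooth muscle genes were not absent either. All 12 had a summed level of 34.5 UMIs per 10000 in WT members, 0.260 times that of the other nuclei (interval 0.234 to 0.289), with a median of 1 UMI and a highest of 123 in a nucleus, and 11 WT and 3 KO nuclei held at least 3 of these UMIs. No doublet caller was run. Carmn itself, the targeted gene, had 12 UMIs in 4 of 51 WT nuclei and 5 UMIs in 2 of 14 KO nuclei. In the other nuclei it stood at 6.63 UMIs per 10000 in WT and 2.22 in KO, a ratio of 0.334 (0.314 to 0.354), so the nuclei counts were lower in the library labelled KO.

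Of the 14 KO barcodes, 2 stood apart. The barcode KO_9 had 32850 UMIs, against 815 to 6662 in the other KO members, and 3 marker UMIs beside 355 smooth muscle, 143 neuron and 145 C3 UMIs. The barcode KO_14 had 5200 UMIs and 2 marker UMIs, both of Nlrp9b, beside 72 UMIs of enteroendocrine genes, of which 49 were Gcg, the glucagon and GLP-1 gene of L cells. KO_9 alone held 46% of all UMIs of the KO members. The KO to WT contrast is therefore described both over all 14 and over the 12 nuclei without these 2, a choice made after seeing the data. Ratios of KO members to other nuclei of their library are over all 14. Median depth was 1481 UMIs (367 to 9827) in WT and 3169.5 (815 to 32850) in KO. Each kept nucleus barcode was checked against the other library, and 4 were shared, none of them a member.

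**Figure D1:**
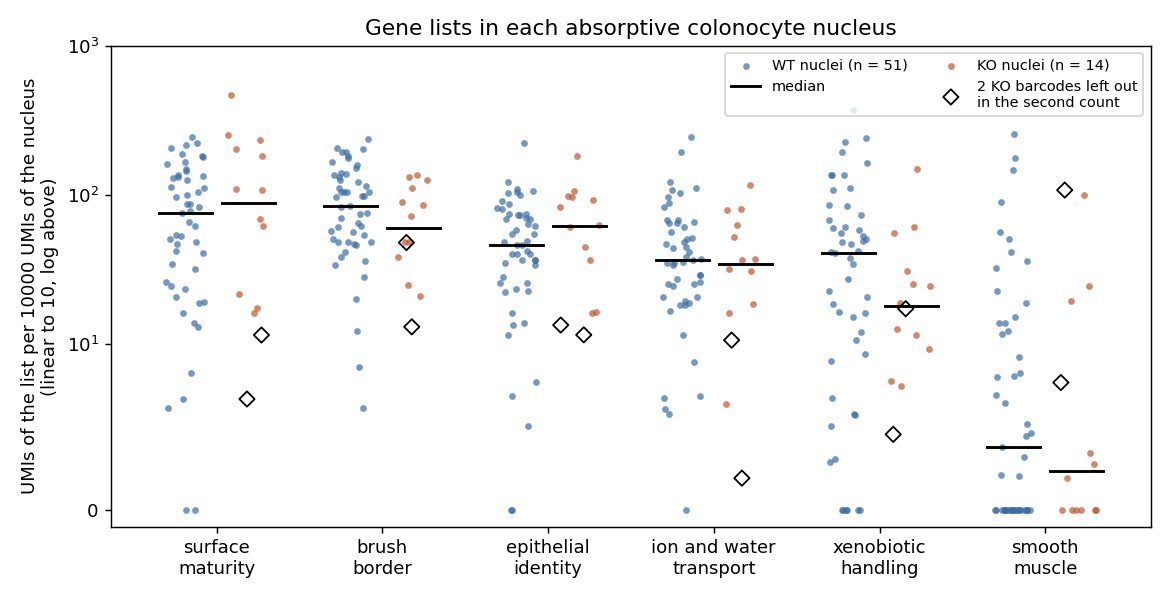
UMIs of 6 gene lists per 10000 UMIs of each nucleus (y axis, linear to 10 and log above) for 51 WT and 14 KO colonocyte nuclei, with bars at the medians over all nuclei of a library and diamonds for the barcodes KO_9 and KO_14. The epithelial lists overlap widely between the libraries, and smooth muscle genes are at or near 0 in most nuclei with a few high ones in each library.

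Outside the rule, the genes with the highest ratio to all other nuclei were led by Slc9a3, Mep1b and Sgk2. The 20 leading genes, ranked by the lower of the WT and KO ratios among genes seen in at least 10% of members of each library, had ratios of 52.5 or more in both libraries. Slc9a3, the sodium-proton exchanger, had 48 UMIs in 15 of 51 WT members against 16 UMIs in all 2786 other WT nuclei, a 242-fold higher level (135 to 457), and 35 UMIs in 6 of 14 KO members against 2 in the others. Slc6a14, a transporter of amino acids, had 83 UMIs in 31 WT members and 43 in 9 KO members, 55.8-fold (41.7 to 74.4) and 63.3-fold (41.6 to 95.5) above the others. Neither transporter came from 1 nucleus alone, but Slc9a3 was seen in a minority of the members of each library. The highest nucleus held 14 Slc9a3 UMIs in WT and 14 in KO, and 9 and 14 Slc6a14 UMIs. Ptprh, a receptor tyrosine phosphatase, had a UMI in 28 of 51 WT and 10 of 14 KO nuclei, and Slc13a2, a carrier of dicarboxylates such as citrate, in 20 and 6.

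Other leading genes included enzymes, a channel and a growth factor. Mep1b and Mep1a, the 2 subunits of the brush border protease meprin, had 42 and 12 UMIs in WT members, 147-fold (86.6 to 257) and 69.2-fold (29.2 to 161) over the other nuclei. Car4, a membrane carbonic anhydrase that makes bicarbonate at the surface, had 25 UMIs in WT and 11 in KO members, and Trpm6, a magnesium channel, 25 and 15. Sult1b1 and Sult2b1, both sulfotransferases, had 18 and 11 UMIs in WT members. Rdh16, a retinol dehydrogenase, had 33 UMIs in WT and 13 in KO, and Areg, a ligand of the EGF receptor, 22 and 5. Sgk2, Sptssb, Abca12, Cyp4f14, Btnl6, Upp1, Apol10a and Itgb6 made up the rest, with 7 to 32 UMIs in WT members. The counts behind KO are small, and for 3 of the 20 genes (Sgk2, Mep1a and Sult2b1) the KO ratio rests on 1 UMI in the other nuclei.

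By function, every absorptive list was above the other nuclei in both libraries. Of all 13045 genes with at least 50 UMIs over the kept nuclei, 1111 (8.52%) were at least 2-fold higher in the members of both libraries. Of the 16 surface maturity genes 11 were, of the 16 epithelial identity genes 13, of the 16 brush border genes 14, of the 20 ion and water transport genes 14, of the 18 epithelial transcription factors 14, of the 14 xenobiotic genes 8, and of the 12 crypt and stem genes 0. The surface maturity list stood 24.1-fold (22.1 to 26.3) above the other nuclei in WT and 22.9-fold (20.4 to 25.7) in KO. The brush border list stood 8.58-fold (7.96 to 9.24) above in WT and 4.65-fold (4.12 to 5.23) in KO, and the ion transport list 6.20-fold (5.63 to 6.82) and 4.48-fold (3.86 to 5.17). In the order surface maturity, brush border and ion transport, the 12 KO nuclei without KO_9 and KO_14 held 105, 67.0 and 48.7 UMIs per 10000. All 14 held 53.1, 40.8 and 27.8, and the other KO nuclei 2.32, 8.77 and 6.19. Crypt and stem genes were at the level of the other nuclei, at 0.947-fold (0.723 to 1.22) in WT.

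Among surface genes, Lypd8, a membrane-anchored protein that keeps flagellated bacteria off the colon surface, had 246 UMIs in 41 of 51 WT nuclei and 132 UMIs in all 14 KO nuclei. Ceacam1 had 121 and 40 UMIs, Ms4a8a 79 and 24, and Muc3, a membrane mucin, 74 and 26. In contrast Guca2b, the gene of uroguanylin, had 0 UMIs in both libraries. Clca4b had 2 UMIs in 2 WT nuclei and 38 UMIs in 5 KO nuclei.

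Among brush border genes, Myo1d, Eps8, Pls1 and Myo5b had the most UMIs, with 172, 110, 84 and 74 in WT members. Pls1 bundles actin in microvilli, Eps8 caps the filaments, and Myo1d and Myo5b are motor proteins of membranes and vesicles. Vil1, the villin of microvilli, had 53 UMIs in 27 of 51 WT nuclei and 15 in 7 of 14 KO nuclei. The protocadherins that link microvilli, Cdhr2 and Cdhr5, had 21 and 17 UMIs in WT and 12 and 10 in KO.

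Among ion and water genes, Car1, a cytosolic carbonic anhydrase, had 104 UMIs that came from 13 of 51 WT nuclei, up to 31 in a nucleus, and 23 UMIs from 2 of 14 KO nuclei. Slc9a2, another sodium-proton exchanger, had 53 UMIs in 26 WT nuclei and 9 in 5 KO nuclei. Scnn1b and Scnn1g, channel subunits that absorb sodium in the distal colon, and Slc26a6 and Best2 had 0 UMIs in the members of both libraries. Aqp8, a water channel, had 6 UMIs in 2 WT nuclei and 1 in KO. The transporters were thus unevenly seen, with Car1 in few nuclei and Slc9a2 in more.

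Of the transcription factors, Hnf4g and Hnf4a, nuclear receptors of the absorptive lineage, had 86 and 51 UMIs in WT and 54 and 13 in KO, and Vdr, the vitamin D receptor, 47 and 9. Cdx2, the intestinal homeobox factor, had 2 UMIs in WT and 4 in KO. Genes that mark the absorptive cells of the small intestine had few UMIs. The list of 14 had 21 UMIs in 11 WT nuclei, 4.24-fold (2.59 to 6.56) above the other nuclei, and 16 in 8 KO nuclei, 4.97-fold (2.80 to 8.21) above, with Sis at 2 UMIs in 1 WT nucleus and Apoa4 at 0 in both.

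Set against the secretory-type nuclei of the same libraries (244 WT and 63 KO nuclei with at least 2 UMIs of the 5 secretory genes and more of them than of the markers, up to 20000 UMIs), the lists separated in part. Epithelial identity genes were 2.15-fold higher in WT colonocyte nuclei than in the secretory type and 1.80-fold higher in KO. Surface maturity genes were 4.35-fold and 3.08-fold higher, and xenobiotic genes 13.4-fold and 4.16-fold. These KO ratios are over all 14 nuclei, which held 33.8, 53.1 and 18.4 UMIs per 10000 of the 3 lists in this order. The 12 without KO_9 and KO_14 held 58.9, 105 and 32.1, and the KO secretory type 18.7, 17.3 and 4.41. Goblet genes, part of what separates the 2 kinds, stood at 89.3 UMIs per 10000 in the WT secretory type and 0.975 in WT colonocyte nuclei. Both kinds came from the same 2 libraries, so these are differences between nuclei and not between animals.

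The nuclei are next described by their number of marker UMIs, the values that chose them, with no test. In WT the surface maturity list had 27.0 UMIs per 10000 in the 14 nuclei with 2 marker UMIs, 64.9 in the 21 nuclei with 3 to 5 and 94.5 in the 16 nuclei with 6 or more. Brush border genes stood at 36.2, 78.0 and 104 UMIs per 10000 in the same 3 classes. Median depth was 1172.5, 1463 and 1743 UMIs, so nuclei with more marker UMIs were also deeper, and the part of depth was not tested. Lypd8 stood at 11.3, 23.3 and 34.2 UMIs per 10000, and Nr3c2, the mineralocorticoid receptor that mediates the response to aldosterone, at 12.6, 28.8 and 60.1.

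Other genes had lower levels in the upper classes. Crypt and stem genes stood at 10.2, 6.11 and 2.57 UMIs per 10000 in the 3 WT classes. Cftr, the chloride channel of crypt cells, stood at 7.17, 4.66 and 0.514, and Dmbt1, a secreted scavenger protein, at 30.1, 31.4 and 10.8. Proliferation genes had 21 UMIs in the class with 2 marker UMIs and 1 and 0 in the others, and only 3 of all 51 WT nuclei had such a UMI. The classes were cut from the UMIs that chose the nuclei, they are ranges and not cell types, and their small counts give no test. The 43 WT nuclei with 1 marker UMI and up to 20000 UMIs, outside the rule, had 14.5 surface maturity and 13.5 crypt and stem UMIs per 10000, and also 80.6 smooth muscle UMIs per 10000 against 49.2, 31.7 and 25.9 in the 3 classes inside.

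**Figure D2:**
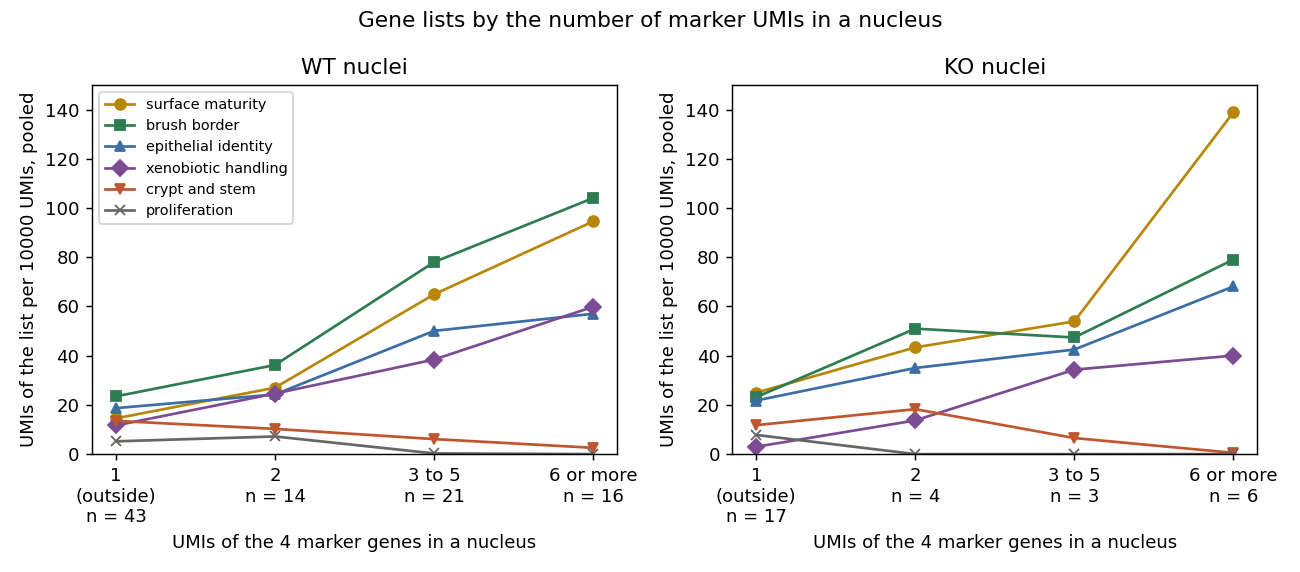
Pooled UMIs per 10000 of 6 gene lists (y axes) by the number of UMIs of the 4 marker genes in a nucleus (x axes) in WT (left) and KO (right), with the number of nuclei under each class and barcodes above 20000 UMIs left out. In WT, surface maturity goes from 27.0 to 94.5 and crypt and stem genes from 10.2 to 2.57 between the lowest and highest class inside the rule, and the KO classes hold only 3 to 6 nuclei.

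The WT nuclei also differed among themselves in genes outside that order. Gsdmc2, a gasdermin that forms membrane pores, had 193 UMIs in 25 of 51 WT nuclei, with a median of 0 and a highest of 24. Abcb1a, the efflux pump P-glycoprotein, had 143 UMIs in 35 nuclei, with a median of 1 and a highest of 16. The 13 nuclei with at least 6 Gsdmc2 UMIs had 6.32 Abcb1a UMIs per 10000 and the 26 nuclei with no Gsdmc2 UMI had 24.5. The xenobiotic list (14 genes such as Abcb1a, Cyp2c55 and Cyp3a13) stood at 15.7 and 72.9 UMIs per 10000 in these 2 classes, and Lypd8 at 14.5 and 34.7. Pooled, the nuclei high in Gsdmc2 were thus lower in genes of drug handling, with a median depth of 2169 against 1322 UMIs. Deep barcodes with many UMIs of other cells were among them. These were WT_16 (9827 UMIs, 88 of smooth muscle genes), WT_40 (6491 UMIs, 43 of glia genes) and WT_50 (6932 UMIs, 123 of smooth muscle genes). They held 0, 1 and 1 Abcb1a UMIs and so lower the pooled levels of that class, including Lypd8. The levels without them were not computed. The classes were chosen after the values were seen, all nuclei come from 1 library, and 15 nuclei had a UMI of both Gsdmc2 and Abcb1a.

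Between the libraries, the pooled levels depended on the 2 barcodes KO_9 and KO_14. Over all 14 KO nuclei, 55 of 729 genes with at least 50 UMIs were at least 2-fold higher in KO (7.54%) and 106 at least 2-fold lower (14.5%). Without the 2 barcodes, 28 of 503 were higher (5.57%) and 44 lower (8.75%), and the median ratio over genes went from 0.844 to 0.973. No p-value is given, since each genotype is 1 library.

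The absorptive lists followed the same pattern. Surface maturity genes had a KO to WT ratio of 0.813 over all 14 KO nuclei and 1.61 (1.41 to 1.84) over the 12. Epithelial identity genes had 0.745 and 1.3 (1.09 to 1.54), ion transport genes 0.615 and 1.08 (0.895 to 1.29), and brush border genes 0.537 and 0.882 (0.756 to 1.02). Weighting nuclei equally, the median surface maturity level was 75.8 UMIs per 10000 in WT (0 to 247), 88.4 in all KO nuclei (6.70 to 467) and 109 in the 12 (16.3 to 467). The ranges overlap, although the highest KO nucleus stood well above every WT nucleus. For the 3 lists other than brush border the ratio moved from below to above 1 when the 2 barcodes were left out. Smooth muscle genes moved the opposite way, from 1.76 to 0.644, and neuron genes from 8.45 to 0.123. The xenobiotic list was lower in KO in both counts, at 0.431 and 0.754 (0.605 to 0.934), against 1.03 in the other nuclei. No WT nucleus was left out in either count. The WT barcodes WT_50, WT_16 and WT_20 held 123, 88 and 73 of the 354 smooth muscle UMIs of the WT members. The 12 KO nuclei are thus set against a WT pool that keeps such barcodes. Ratios without members of 3 or more smooth muscle UMIs in either library are given further on.

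**Figure D3:**
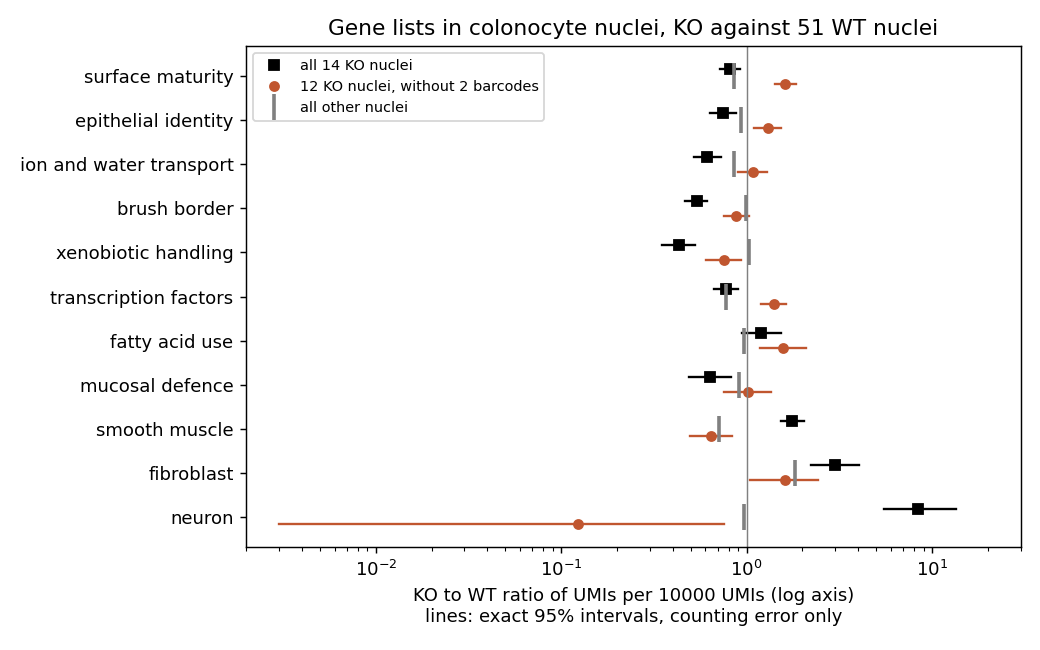
KO to WT ratio of pooled UMIs per 10000 (log x axis) for 11 gene lists, with exact 95% intervals for counting error, over all 14 KO nuclei (squares) and over 12 without the barcodes KO_9 and KO_14 (circles), and the ratio in all other nuclei (grey ticks). The surface maturity, epithelial identity, ion transport, brush border and xenobiotic lists sit at 0.431 to 0.813 with all 14 nuclei and at 0.754 to 1.61 with 12. The fatty acid list sits at 1.20 and 1.58, and neuron genes go from 8.45 to 0.123. No WT nucleus was left out.

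Genes of transport had unlike ratios over the 12 KO nuclei, with Slc9a2 at 0.523 (0.227 to 1.07), Car1 at 0.681 (0.414 to 1.08) and others above 2. The intervals of Slc9a2 and Car1 include 1, and 20 of the 23 Car1 UMIs in KO were in 1 nucleus. Slc5a8, the sodium-coupled carrier of lactate and short-chain fatty acids, had 31 UMIs in 16 of 51 WT nuclei, and 43 UMIs in the 12 KO nuclei, a ratio of 4.27 (2.63 to 7.01) against 0.679 in the other nuclei. With all 14 it had 73 UMIs, in 12 nuclei, and a ratio of 3.38 (2.20 to 5.33). Slc9a3 had a ratio of 2.25 (1.41 to 3.55) from 35 KO UMIs in 6 nuclei, and 1.05 over all 14. Cftr had 2.45 (1.48 to 4.03) from 31 KO UMIs, and Esrp1, an epithelial splicing factor, 2.04 (1.35 to 3.04). Prdx6, a peroxidase of oxidised lipids, had 29 UMIs in WT and 28 in the 12 KO nuclei, a ratio of 2.97 (1.70 to 5.18).

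List genes with a ratio below 0.5 included a drug pump, a receptor and a microvillus protein. Abcb1a had 143 UMIs in 35 WT nuclei and 20 in the 12 KO nuclei, a ratio of 0.431 (0.255 to 0.690), and 0.221 over all 14. Vdr had 0.459 (0.175 to 1.02) and Eps8 0.476 (0.268 to 0.797). Slc26a3, which chose the nuclei and is given as a description, had 127 UMIs in WT and 154 in the 12 KO nuclei, and at least 10 UMIs in 2 of 51 WT and 6 of 14 KO nuclei. Nlrp9b, also of the rule, had 64 and 10. Cyp2c55, a cytochrome P450, had 172 UMIs in 20 WT nuclei and 43 UMIs that all came from 1 KO nucleus, so its pooled ratio of 0.770 describes that nucleus.

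Outside the lists, genes at the ends of the order over the 12 KO nuclei included Foxo3, a forkhead factor, with 60 UMIs in 28 WT nuclei and 2 in KO, a ratio of 0.103 (0.0122 to 0.387) against 1.01 in the other nuclei. Asap1 had 50 and 2 UMIs, and Kcnip4 269 and 7, of which 112 were in 1 WT nucleus. Heph, the copper-dependent ferroxidase that moves iron out of enterocytes, had 33 and 32 UMIs, a ratio of 2.99 (1.78 to 5.01), and Fut8, a fucosyltransferase, 58 and 50, a ratio of 2.66 (1.78 to 3.94). Over all 14 KO nuclei the highest ratios were of genes that came from the 2 barcodes: 97 Mdga2 UMIs and 145 C3 UMIs were in 1 barcode, and 52 Etv1 UMIs in 1, against 6, 16 and 6 UMIs in all WT members. Mitochondrial transcripts also stood there, with mt-Co2 at 9 UMIs in WT and 18 in the 12 KO nuclei and a ratio of 2.85 in the other nuclei.

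Among the 729 genes compared, Gsdmc2 had the lowest ratio between the libraries. It had 193 UMIs in 25 of 51 WT nuclei and 2 UMIs, 1 each in 2 nuclei, in KO. Its ratio was 0.0149 (0.00179 to 0.0545) over all 14 KO nuclei and 0.0319 (0.00384 to 0.117) over the 12, so the 2 barcodes did not carry it. Gsdmc4, which lies on chromosome 15 (63891264 to 63912297, minus strand) near Gsdmc2 (63824346 to 63845177, minus strand), had 61 UMIs in 17 WT nuclei and 1 in KO, a ratio of 0.0505 (0.00126 to 0.292) over the 12. The Gsdmc genes are closely related copies, so the split of reads among them is uncertain. After thinning every nucleus to 500 UMIs, 18 of 48 WT nuclei (37.5%, exact binomial interval 24 to 52.6%) and 0 of 14 KO nuclei (0 to 23.2%) held a Gsdmc2 UMI, against 25 of 51 and 2 of 14 before.

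Gsdmc2 was also lower outside the colonocyte nuclei. The other nuclei held 432 Gsdmc2 UMIs in WT and 8 in KO, a ratio of 0.0252 (0.0108 to 0.05), and Gsdmc4 157 and 7, a ratio of 0.0606 (0.0240 to 0.128). The secretory-type nuclei, which are among these other nuclei, held 25 Gsdmc2 UMIs of 589435 in WT and 1 of 176693 in KO, a ratio of 0.133 (0.00325 to 0.815). Other colonocyte genes were also low there: the ratio in the other nuclei was 0.0582 (0.0287 to 0.106) for Cyp2c55, 0.0985 (0.0541 to 0.166) for Car1 and 0.134 (0.0560 to 0.277) for Krt20, and it was 0.863 for Lypd8. A low ratio outside the colonocyte nuclei was therefore not particular to Gsdmc2.

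Open chromatin was a readout that the rule did not use. Regions were called separately in each library, so only nuclei of the same library are compared. Regions within 1000 bases of the start of a colonocyte gene had 129 counts in 28 of 51 WT members, a level per 10000 region counts 1.72-fold (1.44 to 2.06) above the other WT nuclei. In KO they had 30 counts in 7 of 14 members, 2.33-fold (1.56 to 3.33) above. Regions at the smooth muscle genes had 11 counts in WT members, 0.306-fold (0.152 to 0.548) of the other nuclei, and 0 counts in KO members. Counts near the colonocyte genes as a whole were thus higher in these nuclei, but single lists differed. Of the 72 colonocyte genes, only 31 had such a region in WT and 20 in KO. No ratio over the start regions of all genes was computed, so whether the higher level is particular to colonocyte genes was not tested.

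The single regions were thin. A region listed in WT at the RefSeq start of Slc26a3 (chr12:31437494-31438352), which covers the Slc26a3 window printed above, had 3 counts in 2 of 51 members and 18 counts in 9 of 2786 other nuclei. The region at the start of Epcam (chr17:87635837-87636597) had 4 counts in 2 members and 43 in 23 other nuclei. The region at the start of Paqr5 (chr9:62026458-62027496) had 0 counts in members and 65 in 32 other nuclei. No region within reach of the Ceacam20 or Nlrp9b start was listed in WT, and none for any of the 4 markers in KO. By list, the start regions of epithelial identity genes were 2.42-fold (1.76 to 3.25) higher in WT members from 46 counts, those of ion transport genes 1.70-fold (1.24 to 2.28), and those of brush border genes 1.27-fold (0.841 to 1.85) in WT and 3.30-fold (1.69 to 5.81) in KO. Surface maturity genes stood at 1.19-fold (0.434 to 2.64) in WT from 6 counts, and epithelial transcription factors at 1.04-fold (0.652 to 1.59). Goblet genes, low in RNA, stood at 3.77-fold (1.91 to 6.77) in WT from 12 counts. In KO, epithelial identity genes stood at 1.44-fold (0.392 to 3.73), ion transport genes at 1.93-fold (0.920 to 3.56) and proliferation genes at 1.90-fold (1.04 to 3.21), and epithelial transcription factors had 0 counts. Most region counts are even numbers, and counted in pairs the ratio for all colonocyte genes was 1.71 (1.31 to 2.20) in WT and 2.18 (1.18 to 3.67) in KO.

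Of the 14 WT regions with at least 20 counts in members, 4 were more than 3-fold above the other nuclei. They lay near Rasip1 (chr7:45628222-45629480, 21 counts in 7 members, 6.72-fold, 4.05 to 10.6), at Sod2 (chr17:13007440-13008388, 4.36-fold), at Capza2 (chr6:17636664-17638089, 4.34-fold) and at Avpi1 (chr19:42128286-42129503, 3.91-fold). The next 6 by ratio, among them regions near Gm10800 and Gm26917, stood at 1.08 to 1.49-fold. In KO 4 regions reached 20 counts, and their ratios were 1.29 to 2.02, highest at AC149090.1.

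The bulk libraries of the same tissue were not used to choose the nuclei, so they give a replicated view of the same genes. They hold 3 colon libraries labelled Carmn iKO (tags m1, t4 and t6), 3 of WT mTmG colon (t1, t6 and t7) and 3 of each genotype from jejunum, with 24254905 to 44315104 counts. In whole tissue, fewer colonocytes and less RNA per colonocyte cannot be told apart. Carmn, the check of the labels, stood at 461, 304 and 718 CPM (counts scaled to the library total with TMM factors) in the libraries labelled KO from colon and at 252, 171 and 351 in WT, which goes against the label. The sources used here do not say which part of Carmn was deleted, and counts from outside that part check nothing.

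Mucosal content varied widely between libraries of the same genotype. Epcam stood at 68.9 (m1), 78.2 (t4) and 167 (t6) CPM in the libraries labelled KO and at 153 (t1), 304 (t6) and 5.11 (t7) in WT. Slc26a3 stood at 59.2, 47.4 and 91.6 CPM in the libraries labelled KO and at 41.2, 206 and 2.81 in WT. WT t7 was thus low and WT t6 high in both, and the groups overlap. Markers of the small intestine were also uneven: Sis, the sucrase of small-intestinal absorptive cells, stood at 188 (t1), 136 (t6) and 1.09 (t7) CPM in WT colon and at 7.25, 0 and 0.203 in the libraries labelled KO, against 50.5 to 216 in the 6 jejunum libraries. Apoa4, an apolipoprotein of those cells, stood at 486, 366 and 1.52 CPM in WT colon and at 21.2, 0.382 and 1.52 in the libraries labelled KO. Hoxd13, a gene of the hindgut wall, was at 74.1 to 149 CPM in all 6 colon libraries, and at 0 to 0.220 CPM in 5 jejunum libraries and 14.5 in the jejunum library m1 labelled KO. The part of small-intestinal RNA in the results below was not tested.

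**Figure D4:**
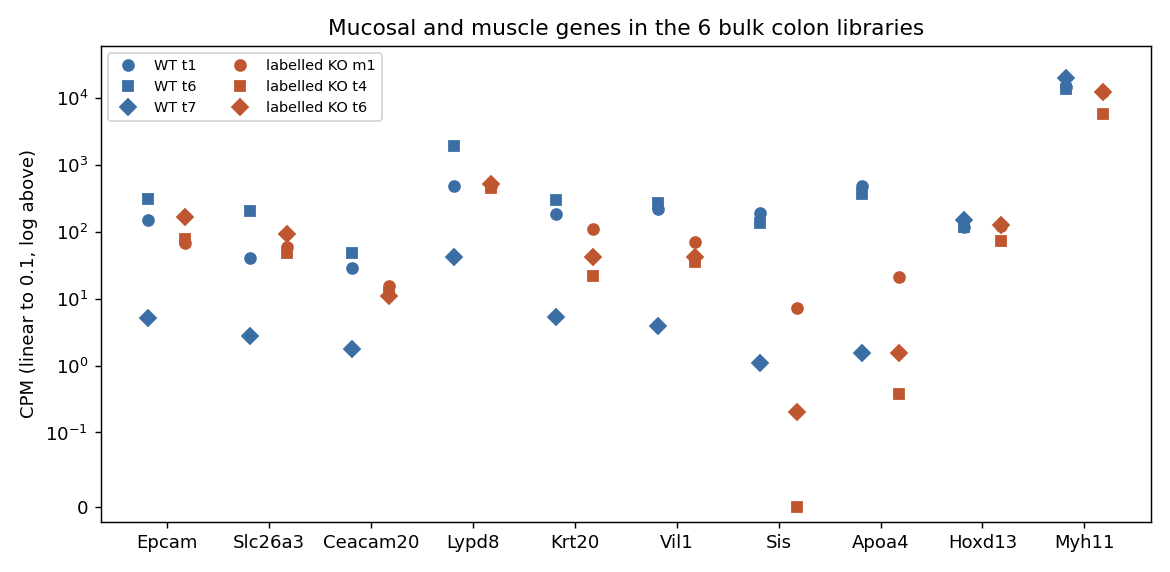
CPM of 10 genes (y axis, linear to 0.1 and log above) in the 6 bulk colon libraries, 3 WT and 3 labelled KO, 1 symbol per library. Epithelial genes of WT t7 sit far below those of WT t1 and t6, Sis and Apoa4 are high only in WT t1 and t6 among colon libraries, and Myh11, a smooth muscle myosin, and Hoxd13 vary far less.

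No colonocyte gene passed the test in bulk colon. Of the 72 colonocyte genes, 0 had an adjusted p below 0.05 by edgeR's quasi-likelihood test with Benjamini-Hochberg adjustment over 20886 genes, of which 81 (0.388%) passed. At an unadjusted p below 0.05 there were 6, and DESeq2 called 3 (Slc26a6 and Guca2b lower and Scnn1b higher in the libraries labelled KO). The 72 had a median log2 fold change of -0.30 against 0.0043 over all genes, with 52 lower and 20 higher. That median ran from -0.75 to 0.50 as each colon library was left out, and among these was above 0 only without WT t6. It was 0.24 by limma voom and 0.0047 with the Epcam level as a covariate, so its direction depends on the fit. Without WT t7, 2 genes passed, Guca2b (log2 fold change -4.30, edgeR adjusted p = 0.0339) and Pls1 (-2.92, adjusted p = 0.0348). Nothing in the labels says that the tags are separate mice, so p-values measure the spread between these samples. Of the 4 markers, Slc26a3 had a log2 difference of -0.34 (SE 1.14, adjusted p = 0.933 by edgeR), Ceacam20 -1.01 (SE 0.93, adjusted p = 0.679), Nlrp9b -1.33 (SE 0.99, adjusted p = 0.581) and Paqr5 0.14 (SE 0.76, adjusted p = 0.962).

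The other genes fixed for this comparison were as variable. Epcam had a log2 difference of -0.55 (SE 0.96, adjusted p = 0.856 by edgeR), Vil1 -1.74 (SE 1.03, adjusted p = 0.482) and Hnf4a -0.91 (SE 0.98, adjusted p = 0.738). Car1, Car4 and Aqp8 lay between -0.32 and -0.11, with adjusted p from 0.926 to 0.986. With standard errors of this size, moderate differences in these genes were not detectable in these libraries.

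Values of KO and WT colon did not overlap for 3 of the 72 genes, against 19.2% of all genes tested. Scnn1b stood at 2.26, 2.78 and 9.17 CPM in the libraries labelled KO and at 0.309, 1.02 and 0.780 in WT, a log2 difference of 2.75 (SE 0.63, adjusted p = 0.102 by edgeR). Scnn1g stood at 2.21, 2.32 and 4.05 CPM against 0.0618, 1.54 and 0.0390. Both are subunits of the epithelial sodium channel and were higher in every library labelled KO, while neither had a UMI in the colonocyte nuclei. Espn, an actin-bundling protein, stood at 22.9, 15.4 and 25.3 CPM against 37.4, 52.9 and 32.9.

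Gsdmc2, chosen here because of its values in the nuclei, stood at 1.48 (m1), 3.05 (t4) and 1.09 (t6) CPM in the libraries labelled KO from colon and at 24.6 (t1), 38.4 (t6) and 0.273 (t7) in WT. The log2 difference was -3.50 (SE 1.53, adjusted p = 0.330 by edgeR), and that of Gsdmc4 was -3.66 (SE 1.81, adjusted p = 0.388). WT t7, the library with little mucosa, overlapped the libraries labelled KO. As a percent of Epcam in the same library, a scale added after seeing the data, Gsdmc2 stood at 2.14, 3.90 and 0.651% in the libraries labelled KO and at 16.1, 12.6 and 5.34% in WT, where t7 rests on 7 Gsdmc2 and 131 Epcam counts. On that scale the groups did not overlap for Gsdmc2, Gsdmc3 or Gsdmc4, against 1.54% of all genes. That share was 19.2% before scaling, and Epcam itself varied widely between libraries, so 1.54% is a poor base for mucosal genes. Among the 72 colonocyte genes the groups did not overlap for 6, with Scnn1g, Guca2a, Esrp1 and Best2 higher and Guca2b and Pls1 lower in the libraries labelled KO. An exact two-sided permutation test was run on 18 genes, among them the 3 Gsdmc genes but not these 6. By this test p was 0.1 for Gsdmc2, Gsdmc3 and Gsdmc4 each, the smallest that 3 against 3 libraries allow. After Benjamini-Hochberg adjustment over the 18 genes it was 0.6.

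In jejunum Gsdmc2 stood at 11.9 CPM in WT t1 but at 0.524 and 0.266 in WT t6 and t7, and at 0.0905 to 0.165 in the libraries labelled KO, so WT libraries also differ among themselves. With the log2 Epcam level as a covariate over the 12 libraries, Gsdmc2 in colon had a log2 difference of -2.38 (SE 1.16, adjusted p = 0.390 by edgeR), and 0 of the 72 colonocyte genes passed against 0.311% of all genes. On the same Epcam scale Slc26a3 stood at 86.0, 60.6 and 54.8% in the libraries labelled KO and at 27.0, 67.9 and 55.0% in WT, and Hnf4a at 73.7, 53.9 and 40.4% and at 69.3, 63.3 and 47.3%, with the groups overlapping. Slc5a8, higher in the KO nuclei, stood at 21.8, 27.6 and 30.2% against 15.5, 46.5 and 37.4% in WT. Abcb1a, lower in the KO nuclei, stood at 33.7, 44.9 and 59.3% against 30.4, 32.3 and 211% in WT. The groups overlapped for both, so bulk colon did not show the differences seen in the nuclei for these genes.

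**Figure D5:**
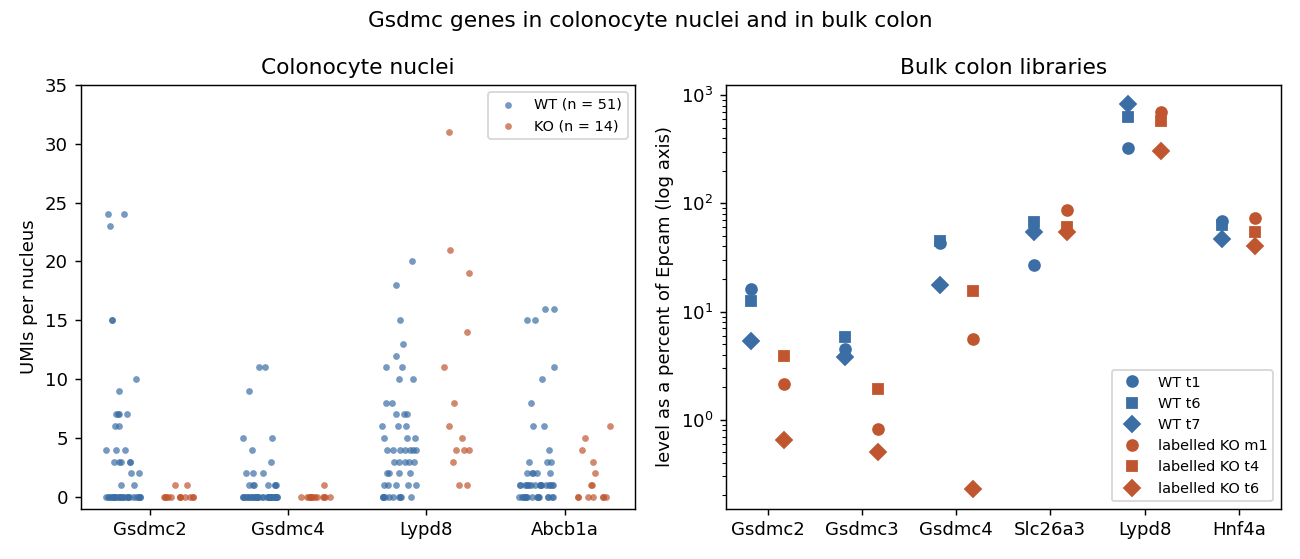
Left: UMIs of 4 genes in each colonocyte nucleus (51 WT, 14 KO), where Gsdmc2 reaches 24 UMIs in WT and 1 in KO while Lypd8 reaches 20 and 31. Right: level of 6 genes as a percent of Epcam (log y axis) in each bulk colon library, where the 3 libraries labelled KO lie below the 3 WT libraries for Gsdmc2, Gsdmc3 and Gsdmc4 and overlap them for Slc26a3, Lypd8 and Hnf4a.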

How the data were processed

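The nuclei matrices hold gene and region values that the authors deposited as counts, made with Cell Ranger per the submitters' processing notes. All gene values were even and were halved to UMIs. The bulk tables hold raw counts per gene deposited by the authors, who named STAR 2.0.4b, featureCounts 1.4.5 of Subread and edgeR with GRCm38 and mm10, per the submitters' processing notes. The members and gene lists were chosen with earlier results of these data known. Nuclei of a library were pooled into UMIs per 10000, with exact Poisson, conditional and Clopper-Pearson 95% intervals. Named genes were the 20 leading genes, the 10 highest and lowest KO to WT ratios with at least 50 UMIs, list genes of highest level or past 2-fold, and fixed bulk genes; Gsdmc genes in bulk and genes ranked without 2 barcodes were chosen after their values were seen. Bulk was fitted on 12 libraries with edgeR 4.0.16 (R 4.3.3, TMM, low-count filter), with DESeq2 1.42.0 and limma 3.58.1 as alternatives. Scripts were tested on simulated data. A gene of the transcription factor list is not reported here.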

Additional observations from a re-analysis of the deposited data

How the results depend on the processing

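With 1 nuclei library per genotype, 14 KO nuclei and unequal mucosa in the bulk libraries, the values below limit what can be read from the KO to WT contrast, and the cause of each change was not tested beyond what left-out nuclei or libraries show. The WT share of colonocyte nuclei was 3.17% with at least 1 marker UMI, 1.3% with 3, 0.881% with 4 and 0.682% after thinning to 500 UMIs, and the KO share 1.77%, 0.413% (4) and 0.376% (thinned). Genes 2-fold higher and lower in KO numbered 15 and 37 with at least 100 UMIs, 243 and 337 with at least 20, 16 and 24 without members of 3 or more smooth muscle UMIs, 24 and 49 without KO_9, and 28 and 44 without KO_9 and KO_14. In the order at least 3 marker UMIs, no such smooth muscle members, without KO_9 and without both, the KO to WT ratio was 0.623, 1.17, 1.16 and 1.3 for epithelial identity, 0.419, 0.756, 0.848 and 0.882 for brush border and 0.686, 1.28, 1.42 and 1.61 for surface maturity. In the last 3 of these settings it was 0.911, 0.938 and 1.08 for ion transport and 0.680, 0.707 and 0.754 for xenobiotic genes. Ratios crossed 1 for smooth muscle (0.725, 0.587 and 0.644 in the last 3 settings), epithelial transcription factors (1.3, 1.29 and 1.4), tuft (0, 0.444 and 0.513), Cajal (0.548 with 3 marker UMIs, 0.27 and 0.336 without smooth muscle members or both), glia (1.33, 1.01, 1.08 and 1.12), crypt and stem (0.808) and mucosal defence (1.02), these last without KO_9 and KO_14, and also for proliferation at 1.26 (at least 3 marker UMIs), fibroblast at 0.497, neuron at 0 and macrophage at 0 (no smooth muscle members), endothelial at 0.242, neuron at 0.426, macrophage at 0.444 and mesothelial at 0.888 (without KO_9), and endothelial at 0, neuron at 0.123 and macrophage at 0.513 (without both).

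In bulk colon DESeq2 called 3 of the 72 genes, and leaving out each library gave 0 to 2. The log2 fold change changed sign under limma voom for Slc26a3 (1.03), Epcam (0.63), Car1 (0.94), Car4 (0.64), Aqp8 (0.35) and Hnf4a (0.43), and with the log2 Epcam level as a covariate, added after seeing the data, for Slc26a3 (0.44), Car1 (0.77), Car4 (0.20) and Aqp8 (0.46). Leaving out each library gave ranges of -0.88 to 1.6 for Slc26a3, -1.10 to 0.43 for Epcam, -0.65 to 1.46 for Car1, -0.84 to 1.13 for Car4, -0.71 to 1.39 for Aqp8, -1.46 to 0.0019 for Hnf4a and -0.31 to 1.41 for Paqr5, and Gsdmc2 stayed between -4.05 and -2.71.

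With the replicate tag as a block in limma voom, 0 of 72 genes passed, as without the block. The block joined colon and jejunum libraries of the same genotype and tag, which were KO m1 and t4 and WT t1, t6 and t7. In colon, tag t6 occurs in both genotypes, and these libraries were not joined. The labels do not say that a shared tag is the same mouse, and the block correlation was -0.11. The block fit gave 1.01 for Slc26a3, 0.59 for Epcam, 0.94 for Car1, 0.63 for Car4, 0.32 for Aqp8 and 0.39 for Hnf4a.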

Other observations

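Other gene groups in the colonocyte nuclei were as follows. Mucosal defence genes stood 4.03-fold above the other nuclei in WT and 2.82-fold in KO, with Pigr, the receptor that carries antibodies across the epithelium, at 56 UMIs in 27 of 51 WT and 43 in 12 of 14 KO nuclei. Genes of short-chain fatty acid and lipid handling stood 3.21-fold and 3.98-fold above. Class II antigen presentation genes stood 3.87-fold above in WT (2.74 to 5.31) and 1.37-fold in KO (0.823 to 2.15), from 40 and 19 UMIs. Tuft cell genes had 6 UMIs in WT and 8 in KO, and lymphocyte genes 1 in each.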
